A study of Mus musculus with 8 samples.

Results

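Leukaemic cells taken after 4 days of doxycycline (Dox) were compared with untreated leukaemic cells. Of the 8 libraries of the series, 4 were used for this comparison, 2 at day 4 and 2 untreated, chosen by sample title. The other 4, from day 2 and day 6 of Dox, helped to estimate the spread between libraries and are compared with day 4 directly further on. All groups came from AML410, a mouse acute myeloid leukaemia with a monosomal karyotype and the genotype p53-/-, carrying a short hairpin RNA against PU.1 (shPU.1) that is linked to green fluorescent protein (GFP). The strain was C57BL/6 and the tissue was bone marrow of leukaemic recipient mice. Untreated cells were sorted as GFPhigh, cells at day 2 of Dox as GFPhigh-mid, cells at day 4 as GFPmid and cells at day 6 as GFPlow. Dox shuts off the hairpin and its GFP, so that endogenous PU.1 can return. Time on Dox and the sorting gate therefore always changed together and cannot be told apart. AML410 is a single leukaemia, and no group carries p53 or lacks the hairpin construct. Sample titles name the libraries of a group as technical replicates, but the design text mentions duplicate mice. The p-values therefore cover the spread between libraries that may come from 1 sample of RNA.

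PU.1, the product of Spi1, is an ETS-family transcription factor that blood progenitors need in order to become monocytes, macrophages, neutrophils and B cells. It binds purine-rich DNA around a GGAA core and opens enhancers of myeloid genes. Its level matters as well as its presence: macrophages hold much PU.1, and progenitors with low PU.1 can stay undifferentiated and give rise to leukaemia. The question put to the data was what state the cells of intermediate GFP were in across signalling, cell growth, metabolism, chromatin and gene families outside the classical myeloid markers.

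The 4 libraries held between 10110580 and 11213292 counts. Levels are CPM, the count divided by the TMM-scaled library total and put on a scale of 1e+06. Where 2 values are joined by "and", they are the 2 libraries of a group. Changes are log2 fold changes ± standard error from edgeR's quasi-likelihood test, with n = 2 libraries a group and p-values adjusted by Benjamini and Hochberg over all genes. Spi1 itself (gene ID 20375, chromosome 2, bases 91082374 to 91115759 in GRCm38.p6) was at 8.34 and 12.9 CPM in the untreated libraries and at 94.0 and 103 CPM at day 4 (log2 change 3.21 ± 0.14, edgeR adjusted p = 1.57e-08). Day 2 had 14.8 and 15.6 CPM and day 6 had 217 and 229 CPM, so day 4 lay between them in every library. Reads of Trp53, which encodes p53, were counted in every library, at 65.0 and 62.7 CPM untreated and 56.5 and 52.0 CPM at day 4. Counts summed over a gene do not check a deletion of part of it. The untreated cells carried progenitor and primary granule transcripts, with Kit at 132 and 125 CPM, Elane at 8562 and 7471 CPM and Ctsg at 5419.5 and 5038 CPM. TMM scaling and scaling by total counts differed. The median log2 change over all genes was -0.02 by TMM and -0.27 by total counts, and the share of called genes that rose went from 54.3% to 28.7%. For day 4 against untreated, each count of list members below is followed in brackets by the same count by total counts, and small changes near that shift of 0.25 should be read against it.

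At day 4, 5924 of the 12330 genes tested differed from untreated at an adjusted p under 0.05, which is 48.0% of them. Of all genes tested 26.1% rose (3217) and 22.0% fell (2707), and the count for any group of genes has to be read against these shares. The 2 groups did not overlap in 9009 genes, 73.1% of those tested. A lack of overlap in the genes named below is therefore common and adds little to a call. In bulk libraries a change in the share of cells of a type and a change in RNA per cell cannot be told apart. Large changes were fewer: 1167 genes rose and 816 fell by over 2-fold, and 124 rose and 52 fell by over 16-fold. Among the largest rises outside receptors and granule genes were Galnt9, which encodes a glycosyltransferase that starts mucin-type O-glycans, and Aif1, an actin-bundling calcium-binding protein of macrophages. Galnt9 went from 0.511 and 0.335 to 25.9 and 24.1 CPM (log2 change 5.85 ± 0.22, edgeR adjusted p = 5.17e-09). Aif1 went from 0.596 and 0.419 to 21.2 and 27.9 CPM (log2 change 5.56 ± 0.30, edgeR adjusted p = 6.15e-08). Rnase6, a secreted antimicrobial ribonuclease, went from 2.30 and 0.755 to 60.9 and 83.2 CPM (log2 change 5.55 ± 0.28, edgeR adjusted p = 3.32e-08). Per kilobase of deposited gene length, the largest gains in level were those of Lyz2 (lysozyme, 829 to 10486 CPM per kilobase), Ly6c2 (a surface protein of monocytes with close copies in the genome, 5956 to 10641) and Camp (the antimicrobial peptide precursor of neutrophil granules, 1302 to 4732). The largest losses on the same scale were those of the primary granule protease genes Ctsg (5218 to 1611) and Elane (8714 to 6322), and of Srgn, the proteoglycan core that packs granule proteases (2644 to 1147).

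**Figure D1:**
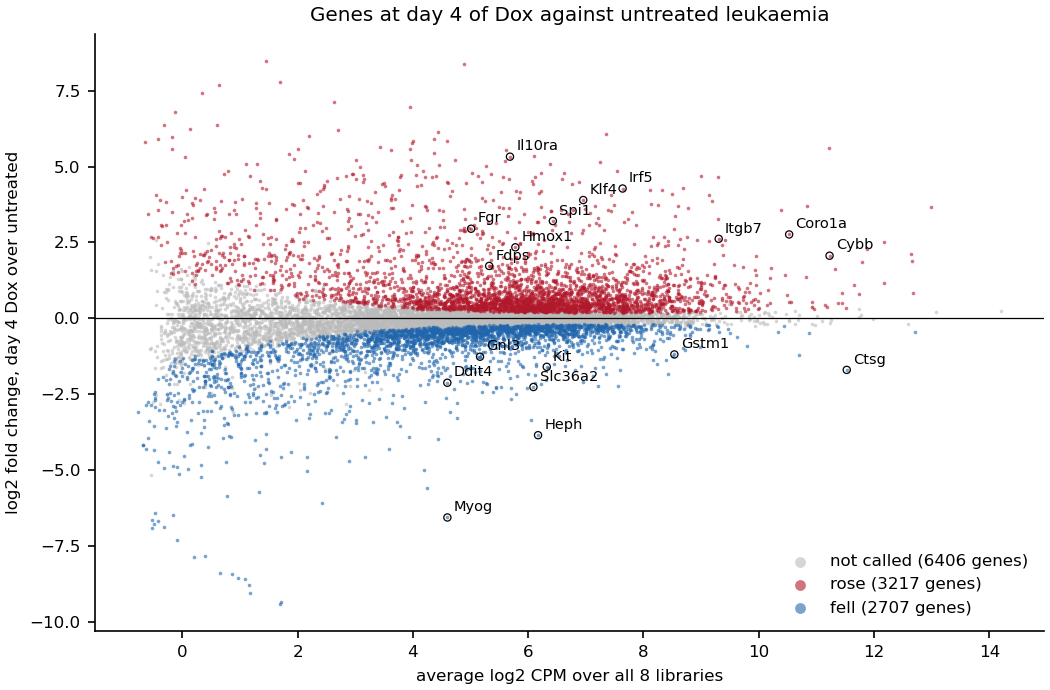
Log2 fold change at day 4 over untreated (y axis) against average log2 CPM over all 8 libraries (x axis), each point 1 of the 12330 genes tested. The 3217 genes that rose are red, the 2707 that fell are blue, circles mark a selection of the genes named in the text, and of the circled genes Il10ra lies highest and Myog lowest.

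To show what the sequence before the start of some rising genes holds, 300-base promoters (250 bases before to 50 after the start, RefSeq, GRCm38.p6) were searched for GAGGAAGT, a run of letters that PU.1 is known to favour, on either strand. The motif was in 3.20% of all 32851 promoters in the table, in 5.03% of those of genes that rose, in 11.1% of those of genes that rose by over 4-fold (52 of 469) and in 2.17% of those of genes that fell. A match describes letters only and is no evidence of binding. The 250 bases before the start are given for 5 rising genes of different roles that are described below, 5′ to 3′ on the strand of the gene, with the motif (or ACTTCCTC where it lies on the opposite strand) in capitals. They come from chr7:3720383-3720632 (Pirb, minus strand), chr11:71144705-71144954 (Nlrp1a, minus), chr7:88277835-88278084 (Ctsc, plus), chr11:23770970-23771219 (Rel, minus) and chr10:10558208-10558457 (Rab32, minus).
Pirb: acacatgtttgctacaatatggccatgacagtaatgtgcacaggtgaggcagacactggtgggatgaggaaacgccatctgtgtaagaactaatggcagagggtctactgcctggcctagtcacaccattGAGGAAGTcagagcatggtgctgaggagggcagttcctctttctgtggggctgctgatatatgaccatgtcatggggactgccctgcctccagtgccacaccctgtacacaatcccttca
Nlrp1a: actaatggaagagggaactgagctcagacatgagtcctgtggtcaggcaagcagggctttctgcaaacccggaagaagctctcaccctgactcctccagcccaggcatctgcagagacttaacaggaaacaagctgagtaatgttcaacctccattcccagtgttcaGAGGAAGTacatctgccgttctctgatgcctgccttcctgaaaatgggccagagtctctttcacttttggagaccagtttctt
Ctsc: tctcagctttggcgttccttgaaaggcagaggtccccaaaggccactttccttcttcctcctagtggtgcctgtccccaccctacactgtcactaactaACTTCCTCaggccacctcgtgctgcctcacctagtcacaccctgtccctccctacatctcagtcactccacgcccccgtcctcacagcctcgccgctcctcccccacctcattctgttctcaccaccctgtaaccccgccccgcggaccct
Rel: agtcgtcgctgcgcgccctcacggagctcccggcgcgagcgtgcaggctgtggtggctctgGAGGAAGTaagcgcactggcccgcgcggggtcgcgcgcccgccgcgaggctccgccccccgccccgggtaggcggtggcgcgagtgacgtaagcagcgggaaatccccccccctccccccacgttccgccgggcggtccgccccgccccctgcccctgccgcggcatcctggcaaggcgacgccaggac
Rab32: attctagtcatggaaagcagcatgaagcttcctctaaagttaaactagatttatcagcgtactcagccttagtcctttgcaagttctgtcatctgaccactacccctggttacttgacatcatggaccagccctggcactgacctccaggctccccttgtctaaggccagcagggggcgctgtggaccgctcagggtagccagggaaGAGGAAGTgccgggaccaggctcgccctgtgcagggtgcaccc
The first letter of the motif lies 120 bases before the start in Pirb, 83 in Nlrp1a, 151 in Ctsc, 189 in Rel and 43 in Rab32. Spi1 has no entry in that table, and the promoters of Irf5 and Pik3r5 are in it without the motif. The genes printed were picked because they rose and hold the motif. Few of the genes looked up hold it: of 181 named genes with a promoter in the table, at least 9 have it before the start. Elane, which fell (log2 change -0.46), is among them.

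Among transcription factors of myeloid differentiation, 17 of 29 rose and 5 fell (12 and 6 by total counts). Irf5, which drives inflammatory cytokine genes in macrophages, was at 19.4 and 15.0 CPM untreated and 324 and 344 CPM at day 4 (log2 change 4.28 ± 0.17, edgeR adjusted p = 5.95e-09). Klf4, a zinc finger factor of monocyte differentiation, rose from 15.5 and 17.4 to 239.7 and 251 CPM (log2 change 3.90 ± 0.14, edgeR adjusted p = 4.02e-09). Both day 4 libraries of each gene lay more than 10-fold above both untreated ones. Atf3, a stress-induced bZIP factor, rose from 0.255 and 0.922 to 7.63 and 6.34 CPM. The 5 that fell include factors of granulocytes and of early response. Gfi1, a repressor needed for neutrophil formation, fell from 193 and 167.1 to 74.0 and 94.1 CPM (log2 change -1.10 ± 0.12, edgeR adjusted p = 2.39e-05). Cebpa fell from 439 and 382 to 230.3 and 226 CPM (log2 change -0.85 ± 0.08, edgeR adjusted p = 7.34e-06). Egr1, an immediate early gene, fell from 51.6 and 57.3 to 10.3 and 15.9 CPM (log2 change -2.06 ± 0.20, edgeR adjusted p = 7.12e-06). Irf8, a partner of PU.1 in monocyte and dendritic cell development, did not pass the test, with 1597 and 1259 CPM untreated and 1323 and 1194 CPM at day 4, and was lower at adjusted p = 0.021 (edgeR) without untreated replicate 2. Among stem and progenitor genes 0 of 18 rose and 10 fell (0 and 14 by total counts), led by Adgrg1 (43.9 and 39.6 to 3.27 and 2.24 CPM, log2 change -3.91 ± 0.19, edgeR adjusted p = 2.42e-08), Kit (-1.59), Myb (-1.37) and Cdk6 (-1.20, all log2).

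**Figure D2:**
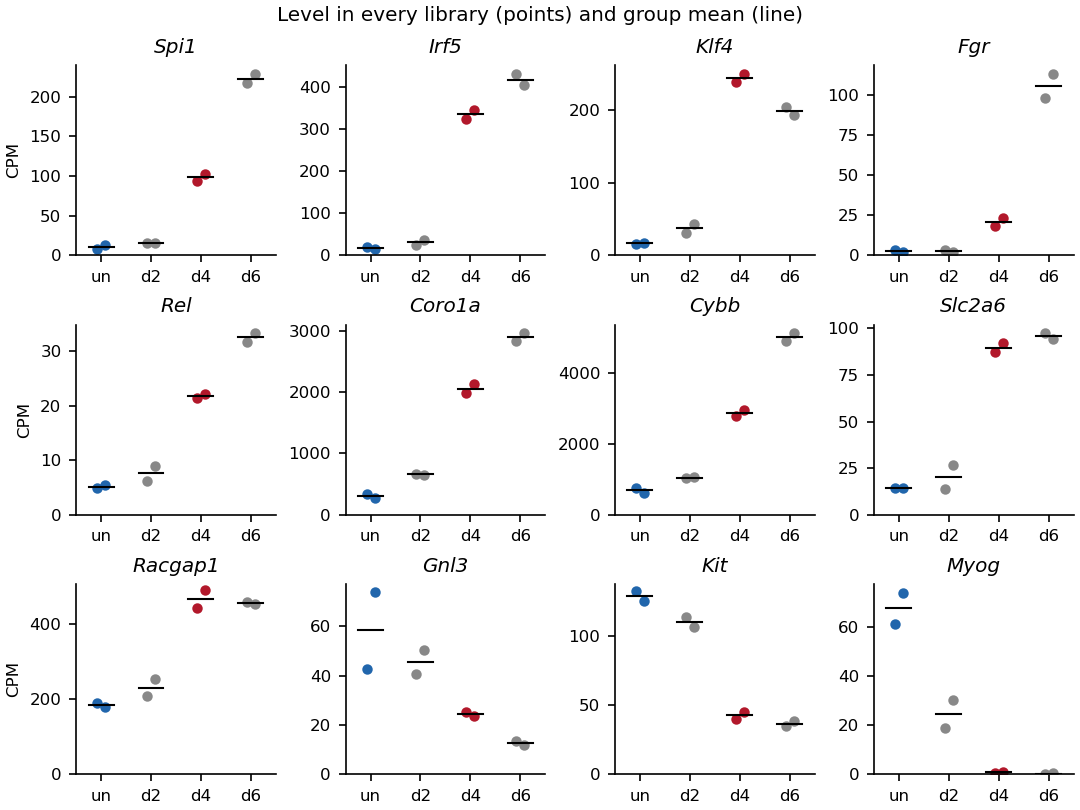
Level in CPM (y axis, from 0) of 12 genes in every library of the 4 groups (x axis: un, untreated; d2, d4 and d6, days of Dox), with points for libraries and a line for each group mean. In all 12 genes the day 4 libraries do not overlap the untreated ones, and the untreated libraries of Gnl3 lie apart from each other (42.7 and 74.0 CPM).

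Receptors that let cells sense cytokines and inflammatory ligands were counted as lists. Of cytokine and growth factor receptors 20 of 26 rose and 0 fell (17 and 4 by total counts), and the number that fell was 3 without untreated replicate 2 and 1 without day 4 replicate 2. Il10ra, the ligand-binding chain of the interleukin 10 receptor, was nearly silent in untreated cells at 1.45 and 2.35 CPM and reached 73.1 and 80.5 CPM at day 4 (log2 change 5.33 ± 0.17, edgeR adjusted p = 1.80e-09). Il13ra1, a chain of receptors for interleukin 13 and interleukin 4, rose from 10.7 and 11.2 to 128 and 133 CPM (log2 change 3.57 ± 0.10, edgeR adjusted p = 1.18e-09), and Csf2rb2, a beta chain of the interleukin 3 receptor, from 12.5 and 12.997 to 87.3 and 96.8 CPM. Of 14 members of the TNF receptor superfamily 10 rose and 2 fell (8 and 2 by total counts; 1 fell without untreated replicate 1), with Tnfrsf11a (RANK, a receptor of osteoclast precursors) going from 0.255 and 0.0838 to 6.08 and 7.70 CPM (log2 change 5.25 ± 0.58, edgeR adjusted p = 2.00e-05). Among chemoattractant receptors 14 of 19 rose and 1 fell (11 and 2 by total counts), with 2 falls when either day 2 library was left out. Ccr2, which takes monocytes to sites of inflammation, rose from 52.5 and 36.7 to 1075 and 1197 CPM (log2 change 4.67 ± 0.28, edgeR adjusted p = 1.39e-07). Both day 4 libraries thus lay far above both untreated libraries for the receptors described so far. Cmklr1, the chemerin receptor, fell from 6.73 and 6.71 to 2.90 and 2.63 CPM. Orphan and proton-sensing receptors were among the risers too: Gpr65 went from 2.55 and 2.93 to 65.2 and 59.9 CPM and Gpr35 from 2.81 and 1.84 to 51.0 and 52.5 CPM.

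Inhibitory receptors and the phosphatases they recruit, which restrain myeloid activation, were another list: 21 of 25 rose and 0 fell (20 and 0 by total counts). Pirb, a paired immunoglobulin-like receptor with inhibitory motifs, rose from 1.96 and 1.84 to 65.6 and 73.7 CPM (log2 change 5.19 ± 0.15, edgeR adjusted p = 1.22e-09). Lilrb4a rose from 0.426 and 0.671 to 12.3 and 16.2 CPM (log2 change 4.66 ± 0.33, edgeR adjusted p = 5.41e-07) and Clec12a from 26.8 and 20.2 to 425 and 467 CPM (log2 change 4.24 ± 0.12, edgeR adjusted p = 1.22e-09). The median over the 25 tested members was 1.68 on the log2 scale, against -0.02 over all genes. Regulators of G protein signalling, which switch off the G proteins of chemoattractant receptors, were taken in by symbol: of 9 genes 6 rose and 1 fell, the same by total counts. The pattern also takes in Rgs9bp, a binding protein, which did not pass the test. Rgs2 rose from 58.8 and 60.4 to 216 and 225 CPM and Rgs18 from 0.937 and 1.01 to 9.71 and 9.75 CPM.

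Beneath these receptors lie SRC, SYK, TEC and FES tyrosine kinases, of which 9 of 16 rose and 5 fell (7 and 6 by total counts). The number that fell was 3 without untreated replicate 1, day 4 replicate 1 or day 4 replicate 2. Fgr, a SRC kinase of phagocytes, rose from 3.24 and 2.10 to 18.1 and 23.4 CPM (log2 change 2.95 ± 0.22, edgeR adjusted p = 8.14e-07), Fes from 101 and 103 to 370.2 and 398 CPM and Lyn from 165.9 and 152 to 417 and 436 CPM. Both day 4 libraries of each of these kinase genes lay above both untreated ones. Among those that fell was Fyn (6.81 and 6.37 to 4.18 and 3.12 CPM), whose edgeR adjusted p was 0.087 without day 4 replicate 2. The lymphocyte kinase genes Lck and Zap70 fell from few counts: 32 counts untreated against 1 at day 4 for Lck (ratio 28.8, counting interval 4.80 to 1171) and 45 against 2 for Zap70 (ratio 20.2, 5.28 to 172.03). Both calls were lost without untreated replicate 1 (edgeR adjusted p = 0.076 and 0.057), and that of Lck also without day 4 replicate 1 (0.098). Of phosphoinositide 3-kinase genes and lipid phosphatases 9 of 19 rose and 1 fell (5 and 6 by total counts), and 2 fell without untreated replicate 1 or day 4 replicate 1. Pik3r6, a regulatory subunit of the gamma isoform that couples to G proteins, went from 2.30 and 1.59 to 36.9 and 49.0 CPM (log2 change 4.46 ± 0.20, edgeR adjusted p = 1.86e-08). The catalytic genes Pik3cd and Pik3cg rose from 121 and 119 to 350.0 and 355 CPM and from 116 and 107 to 219 and 241 CPM. Pik3r1, the regulatory subunit of the receptor tyrosine kinase route, fell from 205 and 232 to 132 and 133 CPM (log2 change -0.73 ± 0.08, edgeR adjusted p = 1.45e-05).

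In the JAK and STAT pathway 12 of 23 rose and 2 fell (8 and 4 by total counts). The number that fell was 1 when untreated replicate 1, untreated replicate 2, day 4 replicate 1 or either day 6 library was left out. Jak2 rose from 81.0 and 82.7 to 176 and 208 CPM (log2 change 1.23 ± 0.09, edgeR adjusted p = 5.50e-07). Stat5b rose from 89.6 and 87.5 to 189.9 and 177 CPM. Socs3, a feedback inhibitor, fell from 47.3 and 39.997 to 29.9 and 23.3 CPM. The libraries of the groups did not overlap in any of these JAK and STAT genes. In the NF-kappaB pathway 16 of 29 rose and 3 fell (12 and 5 by total counts), and without day 4 replicate 1 the number that fell was 1. Rel, which encodes the c-Rel subunit, rose from 4.85 and 5.45 to 21.4 and 22.1 CPM (log2 change 2.08 ± 0.16, edgeR adjusted p = 1.21e-06). Nfkbie, an inhibitor that holds NF-kappaB in the cytoplasm, rose from 7.66 and 7.55 to 24.6 and 23.02 CPM (log2 change 1.65 ± 0.14, edgeR adjusted p = 2.34e-06). Irak2, a kinase of Toll-like receptor signalling, rose from 24.3 and 16.7 to 59.5 and 66.3 CPM. Of MAP kinases and dual-specificity phosphatases 11 of 23 rose and 3 fell (8 and 5 by total counts), with the ERK phosphatase gene Dusp6 rising from 10.05 and 15.2 to 44.9 and 50.1 CPM and Dusp2 falling from 47.9 and 60.9 to 24.1 and 21.0 CPM. Spry2, a feedback inhibitor of receptor tyrosine kinases, fell from 24.8 and 21.1 to 13.2 and 14.6 CPM. Mapk14, which encodes the p38 alpha kinase, did not pass the test (394 and 405 CPM untreated, 422 and 420.4 CPM at day 4).

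**Figure D3:**
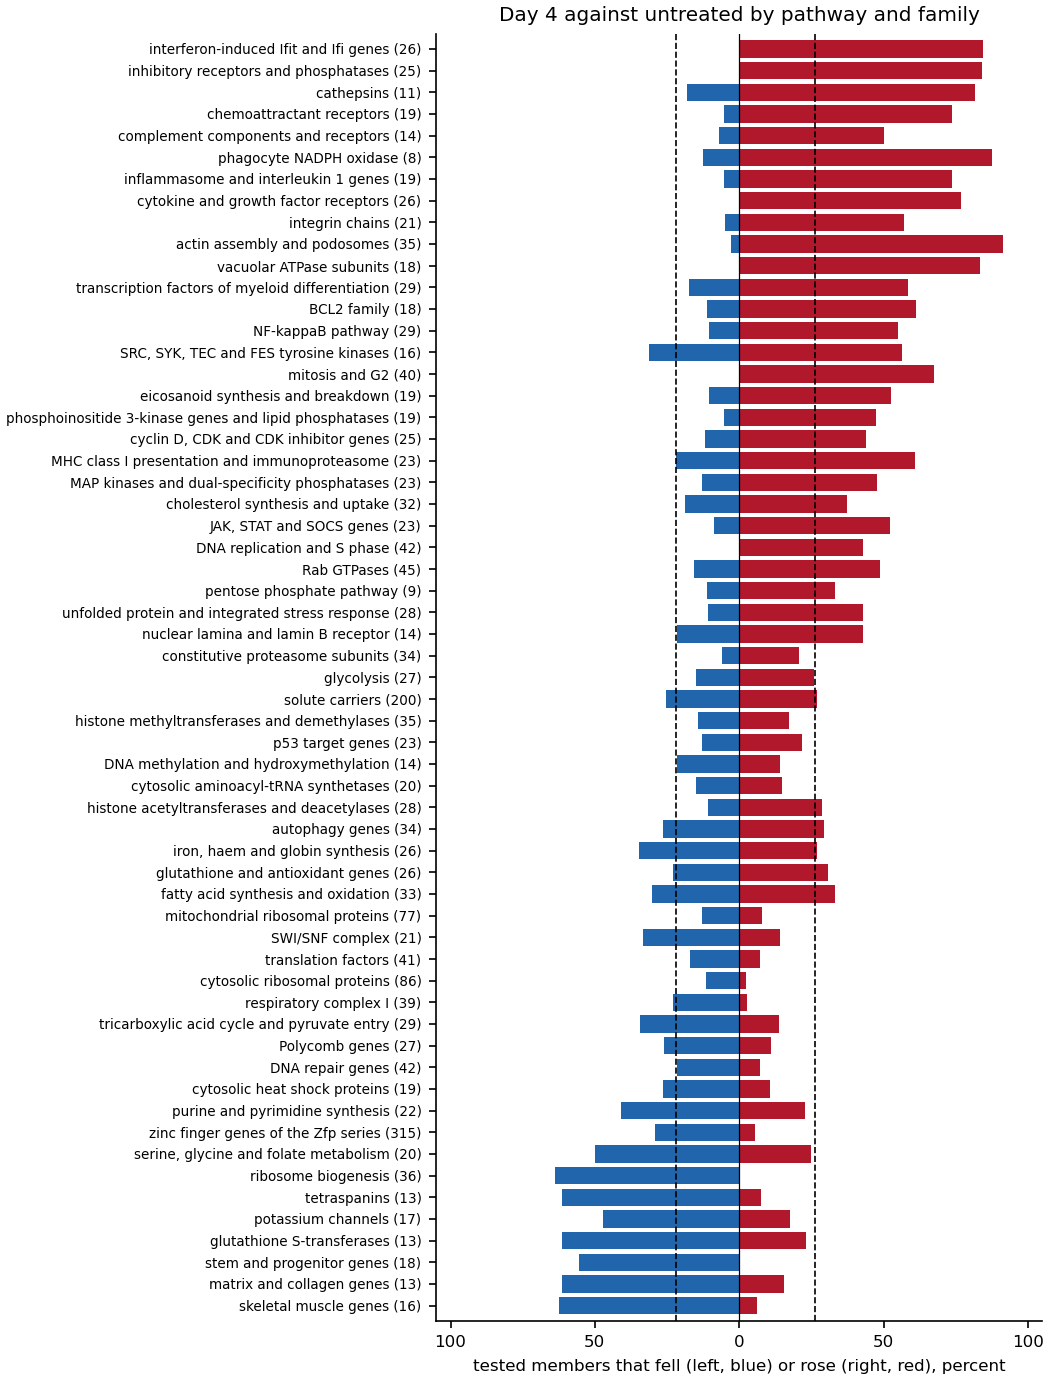
Share of tested members that rose (red, right) or fell (blue, left) at day 4 against untreated, in percent, for the pathway lists and a choice of families (y axis, number tested in brackets; marker lists of cell types are not drawn), ordered by median log2 fold change. Dashed lines mark the shares over all genes tested, 26.1% and 22.0%, and of the lists drawn that of actin genes reaches farthest to the right.

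Phagocytes move, engulf and kill with the help of the actin skeleton, integrins and the oxidase. Of actin assembly and podosome genes 32 of 35 rose and 1 fell (24 and 2 by total counts), with a median of 0.78 on the log2 scale. Coro1a, coronin 1A, which organises leukocyte actin, rose from 330.3 and 273 to 1980.3 and 2122 CPM (log2 change 2.76 ± 0.11, edgeR adjusted p = 6.16e-09). Lsp1, an F-actin binding protein of leukocytes, rose from 59.0 and 59.9 to 786 and 932 CPM (log2 change 3.85 ± 0.15, edgeR adjusted p = 6.77e-09). Capg, an actin filament capping protein, rose from 98.8 and 88.5 to 556 and 599 CPM (log2 change 2.62 ± 0.09, edgeR adjusted p = 3.28e-09) and Evl from 6.98 and 5.62 to 31.0 and 36.2 CPM. Both libraries of a group lay close together in each of these actin genes, far from the other group. Wasl, the broadly expressed N-WASP, fell from 17.8 and 24.6 to 13.3 and 16.2 CPM, a call that was lost without untreated replicate 2 (edgeR adjusted p = 0.21) and without day 4 replicate 1 (0.16). Of 8 genes of the phagocyte NADPH oxidase, which makes superoxide, 7 rose and 1 fell, the same by total counts. Cybb, the catalytic subunit, rose from 755 and 613 to 2782 and 2939 CPM (log2 change 2.06 ± 0.11, edgeR adjusted p = 5.73e-08). Hvcn1, the proton channel that balances its charge, fell from 238 and 199.98 to 122 and 144 CPM (log2 change -0.72 ± 0.11, edgeR adjusted p = 3.23e-04). Integrin chains rose in 12 of 21 cases and fell in 1 (10 and 1 by total counts). Itgb7, which pairs with alpha 4 and alpha E chains for homing to the gut, rose from 192 and 147 to 989 and 1095 CPM (log2 change 2.62 ± 0.14, edgeR adjusted p = 5.70e-08).

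Engulfed material is digested in endosomes and lysosomes, which the vacuolar ATPase acidifies. Of its subunits 15 of 18 rose and 0 fell (10 and 0 by total counts). Atp6v1b2 rose from 177 and 160.0 to 437 and 435 CPM (log2 change 1.37 ± 0.07, edgeR adjusted p = 6.03e-08). Atp6v0d1 rose from 89.6 and 69.4 to 166.3 and 165.3 CPM. Of 11 cathepsins 9 rose and 2 fell (8 and 2 by total counts). Ctsc, which activates the proteases of neutrophil granules, rose from 218 and 190.1 to 1142 and 1052 CPM (log2 change 2.43 ± 0.09, edgeR adjusted p = 5.10e-09). Ctsh rose from 267 and 226 to 1077 and 995 CPM (log2 change 2.07 ± 0.10, edgeR adjusted p = 2.42e-08). The granule protease gene Ctsg fell (log2 change -1.70 ± 0.10, edgeR adjusted p = 1.31e-07), and so did Ctso (29.9 and 32.6 to 23.4 and 17.9 CPM, log2 change -0.59 ± 0.14, edgeR adjusted p = 0.0042). Of 45 Rab GTPases, which steer vesicles, 22 rose and 7 fell (8 and 11 by total counts), with 4 falls without day 4 replicate 1. Rab32, which serves lysosome-related organelles, rose from 65.7 and 61.6 to 169.6 and 174 CPM (log2 change 1.43 ± 0.08, edgeR adjusted p = 9.69e-08). Rab44 fell from 286 and 394 to 174 and 173 CPM (log2 change -0.97 ± 0.12, edgeR adjusted p = 6.77e-05). Syntaxins, VAMP and SNAP proteins rose in 11 of 29 cases and fell in 5 (5 and 9 by total counts). Their median was 0.07 on the log2 scale and -0.18 by total counts. Of the endosomal SNARE genes Stx7 rose from 60.3 and 55.3 to 168.03 and 166.1 CPM and Snap29 from 24.6 and 25.3 to 77.2 and 72.4 CPM. The day 4 libraries of these vesicle genes differed little from each other. Of autophagy genes 10 of 34 rose and 9 fell (2 and 15 by total counts), and 5 fell without day 4 replicate 2. Tfe3 and Tfeb, the master regulators of lysosome genes, rose from 33.7 and 32.7 to 68.8 and 69.6 CPM and from 41.0 and 38.2 to 67.1 and 70.8 CPM. Atg12 fell from 129.8 and 125 to 81.3 and 68.8 CPM.

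Cytosolic sensors form inflammasomes, which release interleukin 1 family cytokines. Of inflammasome and interleukin 1 genes 14 of 19 rose and 1 fell (11 and 3 by total counts). Nlrp1a, an inflammasome sensor, rose from 0.511 and 0.419 to 10.8 and 9.26 CPM (log2 change 4.40 ± 0.31, edgeR adjusted p = 5.36e-07). Nlrc4, which responds to bacterial flagellin through its partners, rose from 0.766 and 0.839 to 12.2 and 12.5 CPM (log2 change 3.92 ± 0.28, edgeR adjusted p = 6.31e-07). Il18bp, a secreted antagonist of interleukin 18, fell from 10.98 and 11.7 to 5.08 and 4.19 CPM (log2 change -1.28 ± 0.19, edgeR adjusted p = 1.69e-04). The sensors were thus close to silent in untreated cells, and the antagonist was not. Of complement components and receptors 7 of 14 rose and 1 fell (6 and 2 by total counts), and none fell without day 4 replicate 1 or without day 4 replicate 2. Among the risers was Cfp (properdin, which stabilises the alternative pathway convertase), which went from 12.2 and 9.06 to 293 and 326 CPM (log2 change 4.87 ± 0.18, edgeR adjusted p = 5.10e-09). Of 26 Ifit and Ifi genes 22 rose and none fell (19 and 1 by total counts), with a median of 2.41 on the log2 scale. Of 7 Schlafen genes, another interferon-linked family, 5 rose and none fell, the same by total counts. Slfn2 rose from 73.7 and 64.6 to 352 and 465 CPM (log2 change 2.56 ± 0.13, edgeR adjusted p = 3.71e-08). Slfn9 did not pass the test (45.8 and 56.2 CPM untreated, 48.5 and 47.9 CPM at day 4). In the eicosanoid list 10 of 19 rose and 2 fell (7 and 4 by total counts). Cyp4f18, which oxidises leukotriene B4, rose from 7.32 and 4.53 to 95.1 and 111 CPM (log2 change 4.12 ± 0.17, edgeR adjusted p = 8.17e-09). Of the called genes named here, none had overlapping groups. Of MHC class I presentation genes 14 of 23 rose and 5 fell (4 and 6 by total counts), and 8 rose without day 4 replicate 2. Tapbp (tapasin, which loads peptides) rose from 178 and 151 to 400.3 and 459 CPM (log2 change 1.38 ± 0.10, edgeR adjusted p = 4.44e-07). Nlrc5, the transactivator of class I genes, fell from 103 and 122 to 63.3 and 73.1 CPM (log2 change -0.72 ± 0.10, edgeR adjusted p = 1.09e-04). Pirb, Nlrp1a, the Ifi and Schlafen genes and the class I genes have close copies in the genome, and reads shared between copies make their values less certain.

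Genes of dividing cells were tested as lists of mitosis and of DNA replication. Of 40 mitosis and G2 genes 27 rose and none fell (7 and 1 by total counts), and of 42 DNA replication and S phase genes 18 rose and none fell (2 and 1 by total counts). Without untreated replicate 1, 1 mitosis gene fell. Without day 4 replicate 1, 9 of the S phase genes rose. These medians, 0.38 and 0.23 on the log2 scale, are close to the shift between scalings and become 0.13 and -0.02 by total counts. The largest rises of the mitosis list were those of cytokinesis genes: Racgap1, part of the centralspindlin complex, rose from 190.0 and 178 to 442 and 490.1 CPM (log2 change 1.34 ± 0.10, edgeR adjusted p = 6.87e-07). Its partner Kif23 rose from 47.6 and 40.2 to 95.8 and 96.4 CPM (log2 change 1.13 ± 0.10, edgeR adjusted p = 3.52e-06). Pcna, the sliding clamp of DNA polymerase, rose from 119.9 and 109 to 205 and 188 CPM (log2 change 0.78 ± 0.08, edgeR adjusted p = 9.50e-06). E2f2 rose from 194 and 192 to 326 and 343 CPM. The groups did not overlap in any of these genes. Mcm6 and Mcm2, helicase subunits, did not pass the test (Mcm6 627 and 570.1 CPM untreated, 665 and 585 CPM at day 4; Mcm2 249.8 and 251 and 284 and 251 CPM in the same order). Mki67 did not pass either; its untreated libraries differed widely (292 and 566 CPM, against 492 and 511 CPM at day 4). It rose at an edgeR adjusted p = 1.88e-04 without untreated replicate 2. Among cyclin D, CDK and CDK inhibitor genes 11 of 25 rose and 3 fell (7 and 6 by total counts). Btg2, an antiproliferative gene, rose from 14.3 and 22.1 to 54.2 and 60.6 CPM (log2 change 1.66 ± 0.16, edgeR adjusted p = 8.29e-06). Cdkn2c, an inhibitor of CDK4 and CDK6, rose from 29.6 and 22.9 to 44.9 and 46.5 CPM. Cdk6 fell from 112 and 117 to 52.4 and 47.4 CPM (log2 change -1.20 ± 0.10, edgeR adjusted p = 2.50e-06).

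Growing cells also need ribosomes, whose assembly in the nucleolus takes many factors. Of 36 ribosome biogenesis genes none rose and 23 fell (0 and 29 by total counts), with a median of -0.40 on the log2 scale. The number that fell was 14 without untreated replicate 2 and 13 without day 4 replicate 2. Gnl3 (nucleostemin, a nucleolar GTPase) fell from 42.7 and 74.0 to 25.2 and 23.4 CPM (log2 change -1.26 ± 0.21, edgeR adjusted p = 5.12e-04). Rrs1 fell from 87.2 and 106 to 53.3 and 48.6 CPM (log2 change -0.93 ± 0.10, edgeR adjusted p = 1.91e-05). Polr1b, a subunit of RNA polymerase I, fell from 45.6 and 60.7 to 32.9 and 30.2 CPM (log2 change -0.75 ± 0.13, edgeR adjusted p = 5.12e-04). Of 86 ribosomal protein genes taken in by symbol, 2 rose and 10 fell (0 and 40 by total counts), with a median of -0.11 on the log2 scale. Their falls numbered 5 without day 4 replicate 1 and 1 without day 4 replicate 2, and their rises 5 without untreated replicate 1 and 1 without any other 1 library. The pattern also takes in Rps19bp1, a binding protein. Of 41 translation factors 3 rose and 7 fell (0 and 20 by total counts), with 1 fall without day 4 replicate 2. The lowest of them was Eif4a2, an RNA helicase of translation initiation, which fell from 121 and 156 to 64.4 and 61.5 CPM (log2 change -1.14 ± 0.13, edgeR adjusted p = 2.19e-05).

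Nucleotide and one-carbon pathways feed DNA and RNA synthesis. Of purine and pyrimidine synthesis genes 5 of 22 rose and 9 fell (3 and 12 by total counts), with 5 falls without day 4 replicate 2. Impdh1, which commits inosine monophosphate to guanine nucleotides, fell from 388 and 366 to 182 and 190.0 CPM (log2 change -1.02 ± 0.07, edgeR adjusted p = 4.31e-07). Cad, which starts pyrimidine synthesis, fell from 148 and 139.7 to 108 and 81.6 CPM (log2 change -0.59 ± 0.11, edgeR adjusted p = 0.0011). The groups did not overlap in either gene. Adss, on the branch to adenine nucleotides, rose from 102 and 87.6 to 233 and 217 CPM (log2 change 1.25 ± 0.10, edgeR adjusted p = 1.43e-06). The salvage gene Hprt rose from 66.8 and 60.3 to 119 and 109.7 CPM (log2 change 0.85 ± 0.08, edgeR adjusted p = 6.96e-06). Of serine, glycine and folate genes 5 of 20 rose and 10 fell (3 and 11 by total counts), with 5 falls without day 4 replicate 2 and the same number without untreated replicate 1. Cytosolic Shmt1 fell from 74.9 and 65.7 to 37.3 and 28.3 CPM (log2 change -1.10 ± 0.12, edgeR adjusted p = 1.95e-05). Slc19a1, the reduced folate carrier, fell from 38.7 and 36.6 to 19.3 and 15.99 CPM, and Phgdh, the first enzyme of serine synthesis, from 51.3 and 43.2 to 31.2 and 20.6 CPM (log2 change -0.86 ± 0.16, edgeR adjusted p = 0.0011). Mitochondrial Mthfd2 rose from 38.6 and 39.2 to 82.7 and 67.9 CPM (log2 change 0.95 ± 0.10, edgeR adjusted p = 1.91e-05). Psat1, a later step of serine synthesis, rose from 58.2 and 50.9 to 99.9 and 85.2 CPM.

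**Figure D4:**
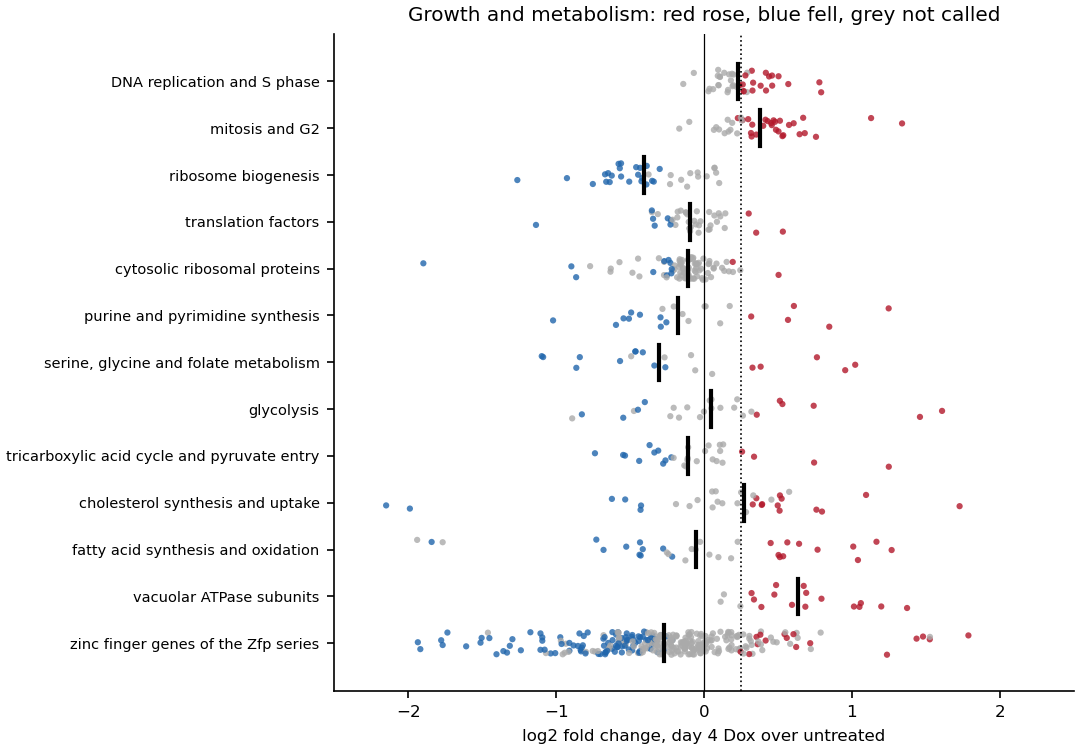
Log2 fold change at day 4 over untreated (x axis) of each tested member (points, red rose, blue fell, grey not called) of 13 growth and metabolism lists (y axis), with a bar at each median. The dotted line marks the shift of 0.25 between TMM and total count scaling, 2 members lie outside the axis, and ribosome biogenesis has no red point.

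Glycolysis and the tricarboxylic acid cycle draw energy and building blocks from glucose. Of 27 glycolysis genes 7 rose and 4 fell (4 and 10 by total counts), with 11 rises without untreated replicate 1. The glucose transporter genes Slc2a6 and Slc2a3 rose from 14.5 and 14.3 to 87.3 and 92.0 CPM (log2 change 2.64 ± 0.20, edgeR adjusted p = 7.65e-07) and from 9.88 and 10.4 to 21.6 and 34.4 CPM (log2 change 1.46 ± 0.21, edgeR adjusted p = 1.86e-04). Hk2, a hexokinase, rose from 104.98 and 125 to 198 and 186 CPM. Hk1 fell from 213 and 189 to 148 and 157 CPM, and Ldha and Tpi1 did not pass the test. Among hexokinases, the paralogs Hk1 and Hk2 thus moved in opposite directions, and the groups did not overlap in either. Of tricarboxylic acid cycle genes 4 of 29 rose and 10 fell (2 and 14 by total counts). Me2, mitochondrial malic enzyme, rose from 111 and 96.8 to 248 and 247 CPM (log2 change 1.25 ± 0.08, edgeR adjusted p = 2.26e-07). Idh1, which makes cytosolic NADPH, rose from 80.0 and 67.7 to 126 and 122 CPM (log2 change 0.74 ± 0.09, edgeR adjusted p = 5.68e-05). Idh3a, an enzyme of the cycle itself, fell by 0.55 on the log2 scale. Of 39 genes of respiratory complex I 1 rose and 9 fell (0 and 17 by total counts), and 5 rose without untreated replicate 1 and none without untreated replicate 2 or either day 4 library. Leaving out each library of the untreated, day 4 and day 6 groups gave 4, 9, 4, 3, 5 and 5 falls, in that order. In the pentose phosphate pathway 3 of 9 genes rose and 1 fell (1 and 1 by total counts). Its median was 0.18 on the log2 scale and -0.07 by total counts. Taldo1, transaldolase, rose from 459 and 398 to 734 and 758 CPM (log2 change 0.80 ± 0.09, edgeR adjusted p = 2.26e-05).

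Cholesterol and fatty acids build membranes and store energy. Of cholesterol synthesis and uptake genes 12 of 32 rose and 6 fell (3 and 7 by total counts), with 7 rises without untreated replicate 2 and the same number without day 4 replicate 1. Fdps, which makes farnesyl pyrophosphate, rose from 16.01 and 16.2 to 55.4 and 51.3 CPM (log2 change 1.73 ± 0.10, edgeR adjusted p = 1.17e-07). Nr1h3, the sterol-sensing receptor LXR alpha, fell from 8.004 and 8.30 to 2.18 and 1.46 CPM (log2 change -2.15 ± 0.31, edgeR adjusted p = 1.61e-04). The groups did not overlap in either gene. Of fatty acid genes 11 of 33 rose and 10 fell (6 and 14 by total counts), with 6 falls without untreated replicate 1. Cpt1a, which brings fatty acids into mitochondria for oxidation, rose from 94.9 and 95.3 to 184 and 275 CPM (log2 change 1.27 ± 0.16, edgeR adjusted p = 6.44e-05). Plin2, a lipid droplet coat, rose from 166.9 and 145 to 264 and 379 CPM. Scd2, a desaturase, fell from 249 and 234 to 168.6 and 122.7 CPM (log2 change -0.73 ± 0.13, edgeR adjusted p = 8.38e-04). In Cpt1a and Plin2 day 4 replicate 2 was the higher library by far, though both day 4 libraries lay above the untreated ones.

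Macrophages take up, store and export iron from engulfed red cells. In the list of iron, haem and globin genes 7 of 26 rose and 9 fell (5 and 10 by total counts). Hmox1, which breaks down haem, rose from 15.6 and 15.8 to 81.0 and 78.4 CPM (log2 change 2.34 ± 0.09, edgeR adjusted p = 5.17e-09). Slc11a1, a metal exporter of phagosomes, rose from 19.6 and 21.7 to 77.7 and 85.6 CPM (log2 change 1.98 ± 0.12, edgeR adjusted p = 1.78e-07) and the ferritin light chain gene Ftl1 from 171 and 161 to 471 and 468 CPM (log2 change 1.503 ± 0.07, edgeR adjusted p = 2.91e-08). In each of these genes the groups did not overlap. Tfrc, the transferrin receptor, fell from 139 and 141 to 86.9 and 63.2 CPM (log2 change -0.89 ± 0.12, edgeR adjusted p = 7.76e-05). The copper-containing ferroxidase genes fell as well, Cp (317 and 257 to 139 and 87.5 CPM, log2 change -1.34 ± 0.18, edgeR adjusted p = 8.69e-05) and Heph (175 and 179.7 to 14.2 and 10.4 CPM, log2 change -3.85 ± 0.12, edgeR adjusted p = 2.13e-09). Of glutathione and antioxidant genes 8 of 26 rose and 6 fell (5 and 12 by total counts), with 3 falls without day 4 replicate 1. Gpx1, the main cytosolic glutathione peroxidase, rose from 1066 and 880.0 to 2583 and 2415 CPM (log2 change 1.36 ± 0.10, edgeR adjusted p = 9.25e-07). Prdx4 rose from 48.5 and 44.7 to 106 and 103 CPM. Slc7a11 and Gclm, which supply cystine and start glutathione synthesis, fell from 22.3 and 24.7 to 13.3 and 13.6 CPM and from 108 and 114 to 79.5 and 68.0 CPM. Of 13 glutathione S-transferases 3 rose and 8 fell (3 and 10 by total counts). Gstm1, a cytosolic member of the mu class, fell from 600.0 and 634 to 290.5 and 252 CPM (log2 change -1.19 ± 0.08, edgeR adjusted p = 5.29e-07). Mgst1, a membrane-bound member, rose from 379 and 304 to 568 and 626 CPM.

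Membrane transporters were counted by family. Of 200 solute carriers 54 rose and 51 fell (34 and 71 by total counts). Slc15a3, a lysosomal exporter of histidine and peptides, rose from 6.73 and 6.62 to 108 and 139 CPM (log2 change 4.21 ± 0.18, edgeR adjusted p = 1.04e-08). The amino acid transporter genes Slc36a2 and Slc6a18 fell from 147 and 128 to 28.1 and 29.3 CPM (log2 change -2.26 ± 0.09, edgeR adjusted p = 8.67e-09) and from 77.5 and 82.6 to 16.3 and 13.5 CPM (log2 change -2.42 ± 0.16, edgeR adjusted p = 2.44e-07). The groups did not overlap in any of these transporters. Of 17 potassium channel genes 3 rose and 8 fell (3 and 9 by total counts), and 5 fell without day 4 replicate 1. Of 13 tetraspanins 1 rose and 8 fell (1 and 9 by total counts), and 2 rose without untreated replicate 1. Tspan4 fell from 40.6 and 39.1 to 18.3 and 15.4 CPM (log2 change -1.24 ± 0.12, edgeR adjusted p = 7.23e-06), and Tspan13 rose from 1.19 and 1.17 to 10.9 and 10.3 CPM (log2 change 3.15 ± 0.21, edgeR adjusted p = 3.25e-07). Among ADAM and ADAMTS proteases, which shed surface proteins or cut matrix, 5 of 19 rose and 9 fell (3 and 11 by total counts). Adam19 rose from 4.26 and 2.85 to 79.3 and 92.6 CPM (log2 change 4.59 ± 0.17, edgeR adjusted p = 4.02e-09). Adam8 rose from 2.55 and 3.44 to 27.7 and 30.5 CPM. Adamts9 fell from 18.7 and 18.3 to 4.99 and 3.61 CPM (log2 change -2.10 ± 0.23, edgeR adjusted p = 2.04e-05).

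Stress responses and the BCL2 family decide on cell survival. Of unfolded protein and integrated stress response genes 12 of 28 rose and 3 fell (2 and 6 by total counts). The chaperone gene Hsp90b1 rose from 751 and 773 to 1175 and 1032 CPM (log2 change 0.53 ± 0.09, edgeR adjusted p = 3.81e-04; not past the threshold by total counts). Ddit4, an inhibitor of mTORC1, fell from 48.4 and 42.5 to 9.62 and 11.3 CPM (log2 change -2.12 ± 0.14, edgeR adjusted p = 3.46e-07). Asns, asparagine synthetase, fell from 164.2 and 137 to 75.0 and 68.6 CPM (log2 change -1.07 ± 0.12, edgeR adjusted p = 3.06e-05). Atf4, the factor that drives Asns, did not pass the test (153 and 202 CPM untreated, 185 and 179 CPM at day 4). The chaperone gene thus rose where the stress-response genes Ddit4 and Asns fell. Of 18 BCL2 family genes 11 rose and 2 fell (8 and 4 by total counts), and the risers include both genes that promote death and genes that favour survival. The number that fell was 1 without untreated replicate 1, day 4 replicate 1, day 2 replicate 2 or either day 6 library. Pmaip1 (NOXA) rose from 5.19 and 5.37 to 34.8 and 32.3 CPM (log2 change 2.66 ± 0.14, edgeR adjusted p = 5.42e-08). Bid rose from 69.6 and 73.7 to 187 and 175 CPM (log2 change 1.34 ± 0.09, edgeR adjusted p = 3.23e-07) and Bmf from 48.1 and 37.7 to 92.5 and 106 CPM (log2 change 1.21 ± 0.12, edgeR adjusted p = 7.38e-06). Among survival genes Mcl1 rose from 155 and 189.7 to 344 and 336 CPM (log2 change 0.98 ± 0.09, edgeR adjusted p = 4.36e-06), and Bcl2l2 fell from 46.7 and 59.2 to 30.3 and 29.4 CPM (log2 change -0.83 ± 0.12, edgeR adjusted p = 1.24e-04). Bcl2a1b, a survival gene with close copies in the genome, had 16 counts at day 4 and 0 untreated, at least 5.94-fold higher (taking 3 counts for both untreated libraries together as the limit, counting error only). The groups did not overlap in any of these BCL2 family genes. In these p53-/- cells 5 of 23 p53 target genes rose and 3 fell (3 and 7 by total counts), and 3 rose without day 4 replicate 2. Xpc, a damage sensor of nucleotide excision repair, fell from 246 and 242 to 122 and 128 CPM (log2 change -0.97 ± 0.09, edgeR adjusted p = 2.96e-06). Of DNA repair genes 3 of 42 rose and 9 fell (0 and 19 by total counts). Falls numbered 3 without untreated replicate 2 or day 4 replicate 2, and rises 1 without untreated replicate 1 and 0 without day 4 replicate 1.

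Of Polycomb genes, which keep chromatin repressed, 3 of 27 rose and 7 fell (2 and 14 by total counts), with 3 falls without day 4 replicate 2. Of histone acetyltransferases and deacetylases 8 of 28 rose and 3 fell (2 and 12 by total counts). Histone methyltransferases and demethylases rose in 6 of 35 cases and fell in 5 (2 and 13 by total counts). DNA methylation and hydroxymethylation genes rose in 2 of 14 cases and fell in 3 (0 and 6 by total counts). Kdm7a, a histone demethylase, rose from 138 and 140.4 to 247 and 272 CPM (log2 change 0.90 ± 0.08, edgeR adjusted p = 1.89e-06). Dnmt3l, a cofactor of de novo DNA methylation, fell from 20.0 and 22.8 to 10.3 and 8.68 CPM (log2 change -1.17 ± 0.14, edgeR adjusted p = 4.00e-05). At the nuclear envelope Tmpo rose from 324 and 319.7 to 627 and 645 CPM (log2 change 0.98 ± 0.08, edgeR adjusted p = 1.27e-06). Lmnb1, lamin B1, rose from 297 and 276 to 511 and 492 CPM (log2 change 0.81 ± 0.08, edgeR adjusted p = 1.13e-05) and Lbr, the lamin B receptor whose level shapes the neutrophil nucleus, from 473 and 386 to 654 and 704 CPM (log2 change 0.66 ± 0.10, edgeR adjusted p = 2.01e-04). Tmpo, Lmnb1 and Lbr each had separate groups. The list of nuclear lamina genes and Lbr as a whole was mixed, with 6 of 14 rising and 3 falling (4 and 4 by total counts). Its median was 0.16 on the log2 scale and -0.09 by total counts. The large family of zinc finger genes of the Zfp series, most of them of the C2H2 type, was counted by symbol, which also takes in CCCH-type genes such as Zfp36l1: of 315, 17 rose and 92 fell (7 and 161 by total counts), with a median of -0.27 on the log2 scale. Their falls numbered 55 without untreated replicate 2 and 59 without day 4 replicate 2. Zfp385a went against the family and rose from 8.94 and 5.87 to 90.2 and 93.7 CPM (log2 change 3.63 ± 0.16, edgeR adjusted p = 1.65e-08), as did Zfp36l1, whose product is an RNA-binding protein that destabilises AU-rich transcripts (20.2 and 17.5 to 58.7 and 71.6 CPM, log2 change 1.79 ± 0.13, edgeR adjusted p = 5.88e-07).

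Untreated cells carried transcripts of skeletal muscle, and some of these were among the deepest losses. The summed level of the tested muscle genes differed little, at 1353 and 1200 CPM untreated and 1222 and 1258 CPM at day 4. Of muscle genes 1 of 16 rose and 10 fell (1 and 11 by total counts), and 2 rose without untreated replicate 1. The median was -3.29 on the log2 scale. The list held 34 genes, of which only these 16 could be tested. Members without a count at day 4 entered the test only through other groups, which favours falls in this count and median. Myog, the master regulator of muscle differentiation (gene ID 17928, chromosome 1, bases 134290004 to 134292548), fell from 61.3 and 73.6 to 0.635 and 0.780 CPM (log2 change -6.56 ± 0.31, edgeR adjusted p = 2.07e-08). Mylpf, a fast myosin light chain, fell from 40.6 and 52.2 to 1.36 and 1.56 CPM, and Tpm2, a tropomyosin, from 19.3 and 26.2 to 0.726 and 1.17 CPM. The troponin genes Tnni1 and Tnnt2 and the fetal acetylcholine receptor subunit Chrng had no count in either day 4 library, which makes them at least 57.5-, 45.5- and 19.5-fold lower than in untreated cells (taking 3 counts for both day 4 libraries together as the limit, counting error only). Tnni2 was the 1 riser, from 3.15 and 3.94 to 9.26 and 11.02 CPM. In the muscle transcripts that fell, both day 4 libraries lay far below both untreated ones. Of matrix and collagen genes 2 of 13 rose and 8 fell (2 and 8 by total counts). Their summed level rose nonetheless, from 428 and 375 to 551 and 582 CPM. Cnmd, chondromodulin, fell from 30.3 and 29.8 to 1.91 and 1.07 CPM (log2 change -4.31 ± 0.26, edgeR adjusted p = 1.29e-07). Col18a1 fell from 18.5 and 18.9 to 1.63 and 2.05 CPM (log2 change -3.34 ± 0.20, edgeR adjusted p = 1.51e-07). Fn1, fibronectin, rose from 19.1 and 15.2 to 189.6 and 226 CPM (log2 change 3.60 ± 0.13, edgeR adjusted p = 4.02e-09). Other large losses were Umodl1 (33.3 and 59.1 to 0.726 and 1.17 CPM, log2 change -5.60 ± 0.35, edgeR adjusted p = 1.89e-07) and Arhgef17, a guanine nucleotide exchange factor (29.4 and 31.5 to 2.18 and 3.02 CPM, log2 change -3.55 ± 0.19, edgeR adjusted p = 5.51e-08).

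Markers of the cell types that a sort from bone marrow could hold were summed in each library. Summed B cell markers were at 87.7 and 42.3 CPM in the untreated libraries and at 13.3 and 13.8 CPM at day 4, and 2 of 11 fell, Igll1 and Vpreb1 (9 by total counts). The number was also 9 when either day 2 library was left out, and 1 without untreated replicate 1 or either day 4 library. The call of Vpreb1 was lost without untreated replicate 1 (edgeR adjusted p = 0.30), day 4 replicate 1 (0.11) or day 4 replicate 2 (0.12). Erythroid markers summed to 14.5 and 6.62 CPM untreated and 3.45 and 6.63 CPM at day 4, with 1 of 6 falling (3 by total counts; 2 without untreated replicate 2, and none without untreated replicate 1 or day 4 replicate 1). Of T and NK cell markers only Nkg7, Il7r and Klrd1 could be tested and none passed (1 fell by total counts), while Il7r fell when either day 2 library was left out. Mast cell, basophil and eosinophil markers summed to 79.5 and 69.8 CPM untreated and 30.1 and 44.8 CPM at day 4, with 1 of 8 rising and 1 falling (2 and 2 by total counts), the latter Mcpt8 (63.8 and 47.4 to 10.5 and 14.7 CPM, log2 change -2.14 ± 0.18, edgeR adjusted p = 1.86e-06). Stroma and endothelium markers summed to 188 and 171 CPM untreated and 270.2 and 229.9 CPM at day 4 (2 of 6 rose and 3 fell, 2 and 4 by total counts, while 1 fell without untreated replicate 1 and 1 rose without day 4 replicate 2), where Pecam1, also a leukocyte gene, took 215 and 176 CPM. Monocyte and macrophage markers rose in 13 of 14 cases and none fell, the same by total counts, their sum going from 6519 and 5842 to 23234 and 24346 CPM. Most of that sum was Lyz2 (965 and 788 to 10831 and 11336 CPM) and Ly6c2 (4978 and 4564 to 8272 and 8775 CPM). Neutrophil markers moved too: 14 of 17 rose and 2 fell (12 and 2 by total counts), with a median of 1.86 on the log2 scale, and their sum went from 20606 and 17388 to 22279 and 27425 CPM. Those that fell were Ctsg and Elane. Of dendritic cell markers 2 of 5 rose and 0 fell (2 and 1 by total counts), and of megakaryocyte markers 0 of 4 rose and 1 fell (0 and 1 by total counts). The part of these markers in the results above was not tested.

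**Figure D5:**
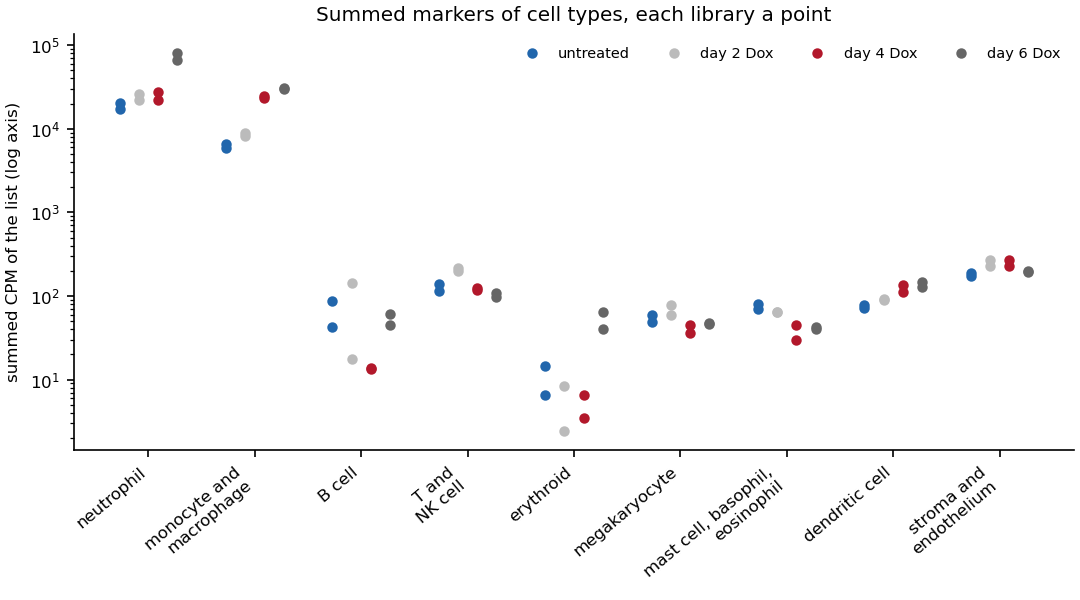
Summed CPM (y axis, log scale) of 9 lists of cell type markers (x axis), each point a library, coloured by group. The B cell sum is lowest at day 4 (13.3 and 13.8 CPM), and the monocyte and macrophage sum rises from 6519 and 5842 CPM untreated to 23234 and 24346 CPM at day 4. Lyz2 and Ly6c2 make up most of the latter sum.

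Day 4 was also tested directly against the times around it. Against day 2, 2681 genes were higher (21.7% of those tested) and 1959 lower (15.9%), together 37.6%. The largest rises included Ptpro, a receptor tyrosine phosphatase (0.692 and 0.449 to 31.6 and 33.5 CPM, log2 change 5.84 ± 0.23, edgeR adjusted p = 1.71e-08), Clec4a3 (0.346 and 0.180 to 17.9 and 14.1 CPM, log2 change 5.92 ± 0.32, edgeR adjusted p = 1.20e-07) and Galnt9 (log2 change 6.10 ± 0.24, edgeR adjusted p = 1.80e-08). The largest falls by fold were of Rpph1 and Rmrp, the RNAs of ribonucleases P and MRP, and they rest on day 2 replicate 1, where Rpph1 was at 82.8 CPM against 1.08 CPM in replicate 2. Serpinh1, a collagen chaperone, fell from 63.5 and 56.9 to 4.36 and 4.29 CPM (log2 change -3.79 ± 0.27, edgeR adjusted p = 8.29e-07). Between day 2 and day 4, 21 of 29 transcription factors of myeloid differentiation were higher and 5 lower, 32 of 35 actin genes were higher and none lower, and 27 of 36 ribosome biogenesis genes were lower and none higher. Of S phase genes 3 of 42 were higher and none lower, which does not show that the others were equal. Mitosis genes were higher in 14 of 40 cases. These list counts are by TMM scaling only. Total counts gave 1870 genes higher and 1921 lower against day 2.

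From day 4 to day 6, 1961 genes were higher (15.9% of those tested) and 1728 lower (14.0%), together 29.9%. That count rests on single libraries: it was 1731 in place of 3689 when day 4 replicate 1 was left out. It was 2132 when day 6 replicate 1 was left out, and 1726 for day 6 replicate 2. At day 6 Chil1, a chitinase-like protein, was at 149 and 199 CPM against 12.9 and 20.9 CPM at day 4 (log2 change 3.37 ± 0.20, edgeR adjusted p = 4.71e-06). Plbd1, a phospholipase of granules, was at 178 and 264 against 19.3 and 28.5 CPM (log2 change 3.21 ± 0.24, edgeR adjusted p = 1.07e-05). Igfbp7, a secreted growth factor binding protein, had 0.450 and 1.08 CPM against 16.8 and 10.6 CPM at day 4 (log2 change -4.14 ± 0.37, edgeR adjusted p = 2.85e-05). Of S phase genes 18 of 42 were lower at day 6 than at day 4 and none higher, and mitosis genes were higher in 1 of 40 and lower in none. Ribosome biogenesis genes were lower in 32 of 36, purine and pyrimidine genes in 15 of 22 (1 higher) and cholesterol genes in 17 of 32 (3 higher). These list counts are by TMM scaling only. Total counts gave 881 genes higher and 2646 lower at day 6 than at day 4. Of the 2397 genes called both at day 4 against untreated and at day 6 against day 4, 336 changed direction, 178 that rose and then fell and 158 that fell and then rose. These comparisons share the day 4 libraries, so a day 4 value that is high or low by chance moves them in opposite directions.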

How the data were processed

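RNA was taken from sorted leukaemic bone marrow cells with a column kit and sequenced as standard Illumina libraries, per the labels' protocols. The deposited tables hold raw read counts per Entrez gene, per the file headers, with a gene length that was used here only to give scaled counts (CPM) per kilobase. The tools named in the submitters' processing notes are CASAVA 1.8.2, featureCounts, edgeR 3.8.2 and limma 3.22.0 with the build mm10. Aligner, strandedness and tool roles: not given in the sources used here. Without strand, overlapping and antisense genes cannot be told apart.

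The tables list 12830 genes, with no row for unassigned reads. Symbols came from RefSeq GRCm38.p6 for 12555 IDs, and the other 275 held 2.24% of counts. One of these took 13.3% of the counts of day 2 replicate 1. filterByExpr left 12330 genes. Libraries were scaled by TMM, and edgeR 4.0.16 (R 4.3.3) fitted group means over all 8 libraries, which share the spread estimate (biological coefficient of variation 8.34%). Quasi-likelihood tests compared day 4 with untreated, day 2 and day 6, with Benjamini-Hochberg adjustment over all genes tested and a threshold of 0.05. The standard error is the fold change divided by the root of the F statistic. Totals were between 9262047 and 11213292 counts, and the fit was tested on simulated data. Where a group had at most 3 counts, ratios or bounds from counts are given, with 95% intervals for counting error only.

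Named genes are Spi1 and Trp53, the 12 genes per direction that changed most at day 4 by fold (average log2 CPM of at least 3, groups not overlapping), the 8 per direction with the largest change per kilobase, the 6 with the largest change in the other comparisons, and up to 4 called members per direction and 3 not called per list. Members not called were taken from the most abundant in untreated cells. The lists and members were chosen with earlier results of these data known. Not every gene that the rule selects is described. The alternatives were other scalings (RLE, total counts), filters, a minimum change of 1.5-fold, a fit of the compared libraries only, a replicate block, leaving out each library, and DESeq2 1.42.0. Figures were drawn with matplotlib 3.10.9.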

Additional observations from a re-analysis of the deposited data

Results flagged for a closer look

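For 11 genes (average log2 CPM of at least 3) the effect of Dox against untreated differed between day 6 and day 4 in the direct contrast of these days, with changes of over 2-fold that went one way up to day 4 and the other way after it. All differences are log2 values, the effect at day 6 minus that at day 4, with edgeR adjusted p-values. Chst15, a sulfotransferase of chondroitin sulfate, had the largest difference, 2.40 (adjusted p = 5.10e-05), with means of 26.4 CPM untreated, 7.33 at day 4 and 38.5 at day 6. Serpinf1, a secreted serpin, followed with -2.01 (adjusted p = 8.72e-04), from 15.0 CPM untreated over 30.6 at day 4 to 7.58 at day 6. Igll1, the surrogate light chain gene of early B cells, differed by 1.86 (adjusted p = 0.019). The summed B cell markers were at 87.7 and 42.3 CPM untreated, 13.3 and 13.8 at day 4 and 45.3 and 60.7 at day 6. Igll1 is itself in that sum, with 21.0 and 14.2 CPM untreated, 2.18 and 1.07 at day 4 and 6.08 and 5.94 at day 6. The sum is therefore not separate from the gene. The part of the B cell markers in this difference was not tested. At day 2 the sum was 145 and 17.4 CPM and Igll1 itself 18.7 and 7.54 CPM, so these markers differed widely between libraries of 1 group. Pcdh18, a protocadherin, differed by -1.72 and stood at 24.2 CPM at day 4 against 4.56 untreated and 7.35 at day 6. Adgrg1 differed by 1.48, Il18bp by 1.33 and Oplah by 1.22, all of them low at day 4. Adgrg1 had means of 41.7 CPM untreated, 5.56 at day 2, 2.76 at day 4 and 7.77 at day 6. It was thus already low at day 2 and stayed far below untreated at day 6. Lpl, lipoprotein lipase, differed by -1.27, with 55.0 CPM untreated, 124 at day 4 and 51.2 at day 6. Dgat2, which makes triacylglycerol, differed by 1.15, with 163.8, 80.0 and 178 CPM in the same order. Rnase2a, an eosinophil-type ribonuclease gene with close copies, differed by -1.15 and Per2, a clock gene, by 1.07. Both contrasts share the day 4 libraries.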

How the results depend on the processing

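The count of genes called at day 4 against untreated (5924) went to 2062 (1312 higher, 750 lower) when a minimum change of 1.5-fold was tested, and scaling by total counts gave 1816 higher and 4519 lower. At day 4 against day 2 the same minimum gave 1434 (967 higher, 467 lower). At day 6 against day 4 it gave 554 (342 and 212), total counts gave 881 higher and 2646 lower, and DESeq2 gave 1089 lower. Leaving out 1 library at a time gave 4467 to 5985 calls at day 4 against untreated (2609 to 3228 higher, 1858 to 2813 lower), 3215 to 5040 against day 2 (2042 to 2889 and 1173 to 2151) and 1726 to 4193 at day 6 against day 4 (1006 to 2222 and 710 to 1971). The lowest totals came without day 4 replicate 2 in the first pair of comparisons and without day 6 replicate 2 in the last, where the fewest higher genes came without day 4 replicate 1. The tests by RLE, without a filter and by DESeq2 shared 5857, 5860 and 4626 of the 5924 calls, and no gene called in both changed direction at day 4 against untreated under any alternative run. No named gene changed direction either. With total counts 109 of 218 counts over lists and families stayed within 1.5 times, with RLE 214 and with DESeq2 180. With 1 library left out 9 to 51 of the 218 moved further than that. The minimum change of 1.5-fold moved the most: 69 of 218 stayed, and 30 of 205 named genes were no longer called. Under it 2 mitosis and 2 S phase genes rose and 2 ribosome biogenesis genes fell. Of inhibitory receptors and phosphatases 18 still rose, and of actin genes 19. The replicate block gave 5787 calls at day 4 against untreated (3145 higher, 2642 lower, 5719 shared), and differences between same-numbered libraries correlated at 0.209 for untreated and day 2, -0.0754 for untreated and day 4 and -0.130 for day 2 and day 6, so the numbers were not taken to pair the samples. Where an alternative moved a count, the cause was not tested. Depth limits the genes with few counts, whose intervals are wide.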

Other observations

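Other families moved in ways the lists above do not cover. Of 9 annexins, which bind phospholipids and calcium, 7 rose and 1 fell (7 and 2 by total counts; none fell without any 1 of the untreated, day 4 or day 6 libraries), with Anxa1, which resolves neutrophil inflammation, going from 204 and 184 to 459 and 571 CPM (log2 change 1.41 ± 0.12, edgeR adjusted p = 2.77e-06) and Anxa2 from 391 and 338 to 756 and 811 CPM (log2 change 1.10 ± 0.09, edgeR adjusted p = 1.85e-06). Of 9 genes taken in as S100 proteins, S100pbp among them, 6 rose and 1 fell (5 and 1 by total counts). S100a10, the partner of annexin A2, rose from 75.9 and 64.1 to 296 and 301 CPM (log2 change 2.09 ± 0.11, edgeR adjusted p = 4.79e-08), and S100a6 from 128 and 97.0 to 324 and 408 CPM. Of 11 Ms4a genes, tetraspan membrane proteins with close copies in the genome, 9 rose and none fell (8 and none by total counts), with Ms4a6c going from 5.96 and 6.04 to 201 and 228 CPM (log2 change 5.16 ± 0.14, edgeR adjusted p = 9.68e-10). Of semaphorins and plexins 7 of 15 rose and 4 fell (5 and 4 by total counts), with Plxnc1 rising from 4.598 and 5.20 to 29.6 and 31.9 CPM (log2 change 2.65 ± 0.18, edgeR adjusted p = 3.57e-07) and Plxna1 falling from 117 and 114 to 54.0 and 53.6 CPM (log2 change -1.10 ± 0.10, edgeR adjusted p = 2.58e-06).

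Further families are given by their counts. Of TRIM proteins 10 of 41 rose and 11 fell (8 and 15 by total counts). Of ABC transporters 9 of 33 rose and 14 fell (4 and 16 by total counts), with 8 to 9 falls without any 1 of the untreated or day 4 libraries. Of kinesins, motors of transport and of the spindle, 12 of 30 rose and 4 fell (4 and 9 by total counts). Of mitochondrial ribosomal proteins 6 of 77 rose and 10 fell (2 and 32 by total counts), with 3 falls without untreated replicate 1 or day 4 replicate 2. Of constitutive proteasome subunits 7 of 34 rose and 2 fell (1 and 5 by total counts), with 12 rises without untreated replicate 1, 4 without untreated replicate 2 and 4 without day 4 replicate 2.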
